A study of Mus musculus with 62 samples.

Results

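Fatty acid synthesis was described by 10 genes, selected by their mouse Entrez identifiers among the 16206 genes listed for the liver, 17653 for the prefrontal cortex and 17874 for the striatum. All 10 were listed in each tissue and all 10 passed the filter on low counts, leaving 12968, 14838 and 15118 genes for testing. The 62 RNA sequencing libraries came from female C57BL/6 mice, an inbred laboratory strain, given vehicle or the MARBLES mixture of polychlorinated biphenyls (PCBs) by mouth at 0.1, 1 or 6 mg/kg. PCBs are persistent industrial chemicals. Vehicle was represented by 4 libraries per tissue, the 0.1 mg/kg dose by 4 in the liver and 5 in each brain region, and the doses of 1 and 6 mg/kg by 6 per tissue. The vehicle libraries are the control of all 3 doses, so the dose comparisons share them and are not independent. The age of the mice, the length of exposure and the time of day of collection are not given in the sources used here. The labels do not say how the samples of a group were raised or handled apart from each other, so p-values measure only the spread between these samples, part of which may be technical.

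De novo fatty acid synthesis turns citrate made from sugar into long fatty acids. ATP citrate lyase (Acly) splits citrate into acetyl-CoA, the acetyl-CoA carboxylases (Acaca in the cytosol, Acacb at the mitochondrial surface) make malonyl-CoA, and fatty acid synthase (Fasn) builds palmitate from them with NADPH, which malic enzyme (Me1) helps to supply. Elovl6 lengthens palmitate and Scd1 desaturates the product. In the liver the transcription factors SREBP-1c, a product of Srebf1, and ChREBP, encoded by Mlxipl, switch these genes on after feeding in response to insulin and sugar, and Thrsp (Spot 14) is a co-regulated small protein that promotes lipogenesis. In the brain the same enzymes supply membrane and myelin lipids.

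Promoter sequence is shown for Fasn and Thrsp, whose liver levels varied together, for Acly at the head of the pathway, and for Mlxipl, the regulator whose window held the sterol regulatory element. RefSeq windows of GRCm38.p6 were found for 9 of the 10 members, all but Scd1 (13 windows, since some genes have several listed starts), and the 250 bases before each start were searched on both strands. The motifs were the sterol regulatory element TCACNCCAC, the E-box CACGTG, the CCAAT box and the GC box GGGCGG, in capitals below, each printed 5′ to 3′ over the 150 bases before the listed start.
Fasn, chr11:120824548-120824697, minus strand: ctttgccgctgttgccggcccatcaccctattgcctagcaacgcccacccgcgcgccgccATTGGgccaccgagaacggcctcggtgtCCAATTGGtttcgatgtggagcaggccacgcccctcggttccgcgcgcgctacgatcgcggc
Thrsp, chr7:97417551-97417700, minus strand: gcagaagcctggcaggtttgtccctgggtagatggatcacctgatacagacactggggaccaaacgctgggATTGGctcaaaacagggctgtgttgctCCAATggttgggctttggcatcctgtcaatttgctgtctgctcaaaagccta
Acly, chr11:100528001-100528150, minus strand: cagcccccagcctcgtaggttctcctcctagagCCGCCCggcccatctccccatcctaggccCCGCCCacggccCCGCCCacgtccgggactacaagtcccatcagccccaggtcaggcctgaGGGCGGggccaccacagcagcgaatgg
Mlxipl, chr5:135106741-135106890, plus strand: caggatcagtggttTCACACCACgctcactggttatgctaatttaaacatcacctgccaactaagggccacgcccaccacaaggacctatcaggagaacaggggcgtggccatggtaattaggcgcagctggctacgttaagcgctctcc
The Fasn window held CCAAT boxes starting at -90, -62 and -59, the last pair overlapping, and the Thrsp window held them at -79 and -52, counted back from the base before the start. Acly held 4 GC boxes, and the Mlxipl window shown held the sterol regulatory element at -136. Another Mlxipl start, at position 135089890, held the only E-box, at -98. CCAAT boxes were in 7 of the 13 member windows, of 6 members, and in 33.8% of all 32851 windows, and GC boxes in 5 of the 13, of 4 members, and in 32.7% of all windows. The sterol regulatory element occurred in 1.05% of all windows and the E-box in 6.02%. These are matches of letters only.

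Each liver library held between 7381179 and 10203247 counts, each prefrontal cortex library between 8722232 and 12135200, and each striatum library between 8283032 and 12019651. The summed level of 5 hepatocyte markers (Alb, Apoa1, Serpina1c, Tat, Cps1) was 70794 to 154330 CPM (counts after TMM scaling for library size) in the liver. In each brain region 3 of these 5 were listed, and their sum was at most 1.16 CPM. Of 5 adipocyte markers, Adipoq, Lep, Retn and Plin1 were not among the genes listed for the liver and Cfd reached at most 1.66 CPM. The summed markers of striatal and of cortical projection neurons overlapped between the brain regions over all dose groups, with striatal ones at 777 to 1971 CPM in vehicle prefrontal cortex and 1909 to 4366 CPM in vehicle striatum.

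Without PCB, each of the 10 genes was higher in the liver than in either brain region. All 10 passed an adjusted p of 0.05 by edgeR's quasi-likelihood test with Benjamini-Hochberg adjustment, the test behind every adjusted p here, in both comparisons, where 84.9% of genes passed against the prefrontal cortex and 83.7% against the striatum. The log2 difference from the prefrontal cortex was 8.57 (SE 0.327, adjusted p 4.01e-11) for Mlxipl, 7.76 (SE 0.199, adjusted p 6.5e-13) for Scd1 and 6.97 (SE 0.512, adjusted p 7.19e-07) for Thrsp. The smallest was that of Acly, at 2.10 (SE 0.267, adjusted p 1.03e-05). The gap to the prefrontal cortex was thus widest for the desaturase and for the regulators Mlxipl and Thrsp, and narrowest for the lyase that makes acetyl-CoA. The size of these log2 differences depends on TMM scaling of both tissues together, although most genes differed between them. With each tissue scaled on its own, Acly averaged 539 CPM in vehicle liver and 240 CPM in vehicle prefrontal cortex. That is a smaller gap than the log2 difference of 2.10.

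Levels were compared between genes as CPM per kilobase of the longest transcript. In vehicle liver Scd1 stood at 3331 ± 668 CPM per kb (SD, n = 4), followed by Thrsp at 652 ± 392, Me1 at 265 ± 40.8, Fasn at 244 ± 78.05 and Acly at 122 ± 59.5. Mlxipl at 98.2 ± 35.5, Srebf1 at 84.5 ± 22.7 and Elovl6 at 84.2 ± 20.8 followed, and Acaca at 31.5 ± 9.27 and Acacb at 22.2 ± 5.85 were lowest (SD, n = 4 each). Scd1 was separated from all others. Thrsp overlapped Fasn and its mean lay above that of Me1 by less than its SD, and among Acly, Mlxipl, Srebf1 and Elovl6 the neighbours in that order differed by less than the SD of the higher gene. In both brain regions the order was led by Acly, then Fasn and Scd1. Acly measured 54.2 ± 2.75 CPM per kb in vehicle prefrontal cortex and 79.7 ± 1.61 in vehicle striatum (SD, n = 4 each). Mlxipl, which encodes ChREBP, was the lowest in the brain at 0.49 ± 0.112 and 0.767 ± 0.196 CPM per kb (SD, n = 4 each).

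**Figure D1:**
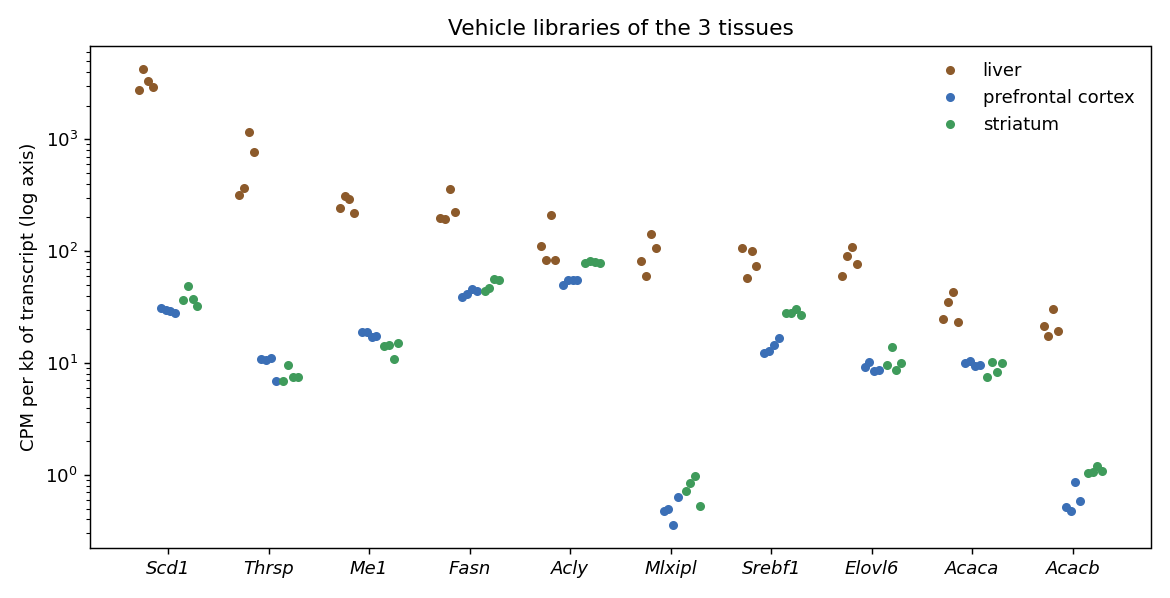
Level of each gene in the vehicle libraries of 3 tissues, as CPM per kb of transcript on a log axis, 1 point per library and genes ordered by their mean level in the liver. Liver points lie above those of both brain regions for every gene, and Mlxipl in the brain lies below 1 CPM per kb.

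Between the brain regions, Srebf1 (log2 difference striatum minus prefrontal cortex 0.93, SE 0.104, adjusted p 5.81e-05), Acly (0.48, SE 0.0834, adjusted p 0.00114) and Acacb (0.75, SE 0.197, adjusted p 0.0131) were higher in the striatum. Me1 was lower there (-0.48, SE 0.109, adjusted p 0.00605). These were 4 of 10 members, against 22.2% of all genes. Scd1 had a difference of 0.33 with an adjusted p of 0.0562, which became 0.0481 with DESeq2, where 5 members and 24.3% of genes passed. The call for Acacb was lost without vehicle animal 3 (adjusted p 0.07995) or 4 (adjusted p 0.0603), when 12.1% and 16% of genes passed. Without vehicle animal 8 the count was 6, Scd1 and Thrsp being added, against 23.4% of genes. The striatum library of animal 8 held summed cortical projection neuron markers of 1060 CPM, against 70.6 to 372 CPM in the other vehicle striatum libraries. The summed oligodendrocyte markers were 2052 to 3096 CPM in vehicle prefrontal cortex and 3998 to 6092 CPM in vehicle striatum, and those of the choroid plexus 8.64 to 15.5 and 30.8 to 83.3 CPM. The neuron markers were lower in the striatum, at 2505 to 3121 against 4258 to 5251 CPM, and so were the astrocyte markers, at 2080 to 2180 against 2522 to 3040 CPM. Their part in these differences was not tested.

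In the liver the question was whether the pathway differed from vehicle at each dose. At 6 mg/kg no member passed an adjusted p of 0.05, against 2.8% of the 12968 genes, and 5 of 10 had an unadjusted p under 0.05, against 24.2%. The regulators Srebf1 and Mlxipl had the positive values among these 5 and the enzymes Elovl6, Scd1 and Me1 the negative ones. With DESeq2's Wald test 1 member passed, Srebf1, against 9.72% of the genes it gave an adjusted p. The median log2 fold change of the members was -0.56 and that of all genes 0.02. For 1 mg/kg 0 members passed, against 0% of genes, and only Srebf1 had an unadjusted p under 0.05, against 8.44% of genes. At 0.1 mg/kg 0 passed, against 0.0154%, and 0 had an unadjusted p under 0.05, against 4.1%. By DESeq2, 0 passed at either of these doses, against 0.162% and 0.0963%.

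Srebf1 (Entrez 20787, chr11:60199084-60224186 in GRCm38.p6) encodes the SREBP-1 proteins. Its level was 458, 249.9, 429 and 316 CPM in the 4 vehicle livers and 958, 446, 568 and 256 CPM at 0.1 mg/kg. At 1 mg/kg it ran from 261 to 1361 CPM with a median of 705, and at 6 mg/kg from 438 to 990.4 CPM with a median of 903. Of the 16 dosed livers 11 lay above the vehicle range and 0 below it, and the groups overlapped at every dose. The log2 fold change was 0.62 (SE 0.418) at 0.1 mg/kg, 1.05 (SE 0.393, adjusted p 0.546) at 1 mg/kg and 1.10 (SE 0.394, adjusted p 0.106) at 6 mg/kg. DESeq2 gave the latter an adjusted p of 0.0365. Leaving out each replicate in turn, the log2 fold change ran from 0.22 to 0.86 at 0.1 mg/kg, 0.80 to 1.23 at 1 mg/kg and 0.95 to 1.23 at 6 mg/kg.

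Mlxipl (Entrez 58805, chr5:135089890-135139768) encodes ChREBP. Vehicle livers measured 297, 218, 517 and 390.4 CPM and those at 0.1 mg/kg 603, 618, 262 and 465 CPM. With 1 mg/kg Mlxipl ran from 162 to 636 CPM around a median of 319.99, and at 6 mg/kg from 294 to 869.8 CPM around a median of 722. At 6 mg/kg 4 of the livers stood at 715 CPM or more and the other two, animals 55 and 56, within the vehicle range. The log2 fold change was 0.84 at 6 mg/kg (SE 0.367, adjusted p 0.166) and -0.02 at 1 mg/kg (SE 0.357, adjusted p 0.988), so the values were not ordered by dose. Corrected for the GC content and length of transcripts, the 6 mg/kg value was 0.56 (SE 0.3503).

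Thrsp (Entrez 21835, chr7:97412933-97417550) encodes Spot 14. Vehicle livers held 448, 511, 1619 and 1076 CPM and livers at 6 mg/kg 184 to 2146 CPM with a median of 1196. The range at 6 mg/kg thus enclosed the vehicle range on both sides. Its log2 fold change at 6 mg/kg was 0.37 with an SE of 0.554 (adjusted p 0.712). Leaving out each replicate in turn gave 0.12 to 0.81.

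Among the enzymes that end the pathway, Scd1 (Entrez 20249, chr19:44394450-44407709), which puts the double bond into stearate, had the highest level of the members in the liver. Vehicle livers held 13463, 20646, 16087 and 14190 CPM and livers at 0.1 mg/kg 10992, 3553, 13366 and 5068 CPM. At 1 mg/kg the values ran from 1779 to 23379 CPM with a median of 7125, and at 6 mg/kg from 1467 to 13669 CPM with a median of 4784. All livers at 0.1 mg/kg were below all vehicle livers, and at 6 mg/kg only animal 56 reached the vehicle range. The log2 fold change was -0.97 (SE 0.687) at 0.1 mg/kg, -0.95 (SE 0.613) at 1 mg/kg and -1.44 (SE 0.613, adjusted p 0.16) at 6 mg/kg. Without animal 41 the 1 mg/kg value was -1.60, and leaving out each replicate in turn gave -1.60 to -0.73. Reads of Scd1 could be shared with its paralogs Scd2, Scd3 and Scd4, whose treatment in counting is not given in the sources used here.

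Me1 (Entrez 17436, chr9:86581363-86695914), the cytosolic malic enzyme, had the narrowest vehicle group, with 799, 1015, 954 and 726 CPM. At 0.1 mg/kg it measured 616, 191, 581 and 267 CPM. At 1 mg/kg it ran from 132 to 1016 CPM with a median of 299.7, and at 6 mg/kg from 103 to 713 CPM with a median of 269. Of 16 dosed livers 15 lay below the vehicle range, and animal 41 at 1 mg/kg lay above it. Me1 was the single member whose 6 mg/kg and vehicle groups did not overlap (6.76% of genes did not), and Me1 and Scd1 were the 2 that did not overlap at 0.1 mg/kg (4.13% of genes). None of the 10 was free of overlap at 1 mg/kg (1.59% of genes). The log2 fold change was -1.08 (SE 0.612) at 0.1 mg/kg, -1.08 (SE 0.545) at 1 mg/kg and -1.50 (SE 0.546, adjusted p 0.112) at 6 mg/kg. Without animal 56 the 6 mg/kg value was -1.94 with an adjusted p of 0.0332, in a fit that called 10.1% of all genes. Leaving out each replicate in turn gave -1.94 to -1.32.

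Elovl6 (Entrez 170439, chr3:129532386-129638495), the elongase of palmitate, measured 356, 544, 646 and 458 CPM in vehicle livers and 524, 115, 327 and 94.1 CPM at 0.1 mg/kg. It ran from 93.6 to 539 CPM with a median of 171 at 1 mg/kg and from 70.8 to 438 CPM with a median of 179.5 at 6 mg/kg. Of the dosed livers 12 of 16 lay below the vehicle range and 0 above it. The log2 fold change at 6 mg/kg was -1.29 (SE 0.552, adjusted p 0.162).

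The enzymes at the head of the pathway overlapped vehicle at 6 mg/kg. Acly (Entrez 104112) measured 493, 368, 925 and 372 CPM in vehicle livers and 61.7 to 839 CPM with a median of 227 at 6 mg/kg, a log2 fold change of -0.86 (SE 0.67, adjusted p 0.44). Acaca (Entrez 107476) measured 237, 333, 409 and 219.6 CPM in vehicle and 56.5 to 284 CPM with a median of 162 at 6 mg/kg (log2 fold change -0.86, SE 0.488, adjusted p 0.282). Acacb (Entrez 100705) measured 189, 152, 268 and 169.9 CPM in vehicle and 69.2 to 329 CPM with a median of 143 at 6 mg/kg (log2 fold change -0.27, SE 0.509, adjusted p 0.782). For these 3 genes the lowest dosed livers lay far below vehicle while the highest lay within or above it. Fasn (Entrez 14104, chr11:120805958-120825166), the central synthase, held 2009, 1935, 3612 and 2263 CPM in vehicle livers and 497 to 3925 CPM with a median of 2235 at 6 mg/kg. Its log2 fold change of -0.18 (SE 0.522, adjusted p 0.863) was the one closest to 0 among the 10 at that dose, and 7 of 16 dosed livers lay below and 3 above the vehicle range. Single livers moved these values: without animal 56 of the 6 mg/kg group the log2 fold change was -1.52 for Acly, -0.60 for Acacb and -0.43 for Fasn, and without vehicle animal 7 it was -0.47, -0.07 and 0.07.

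**Figure D2:**
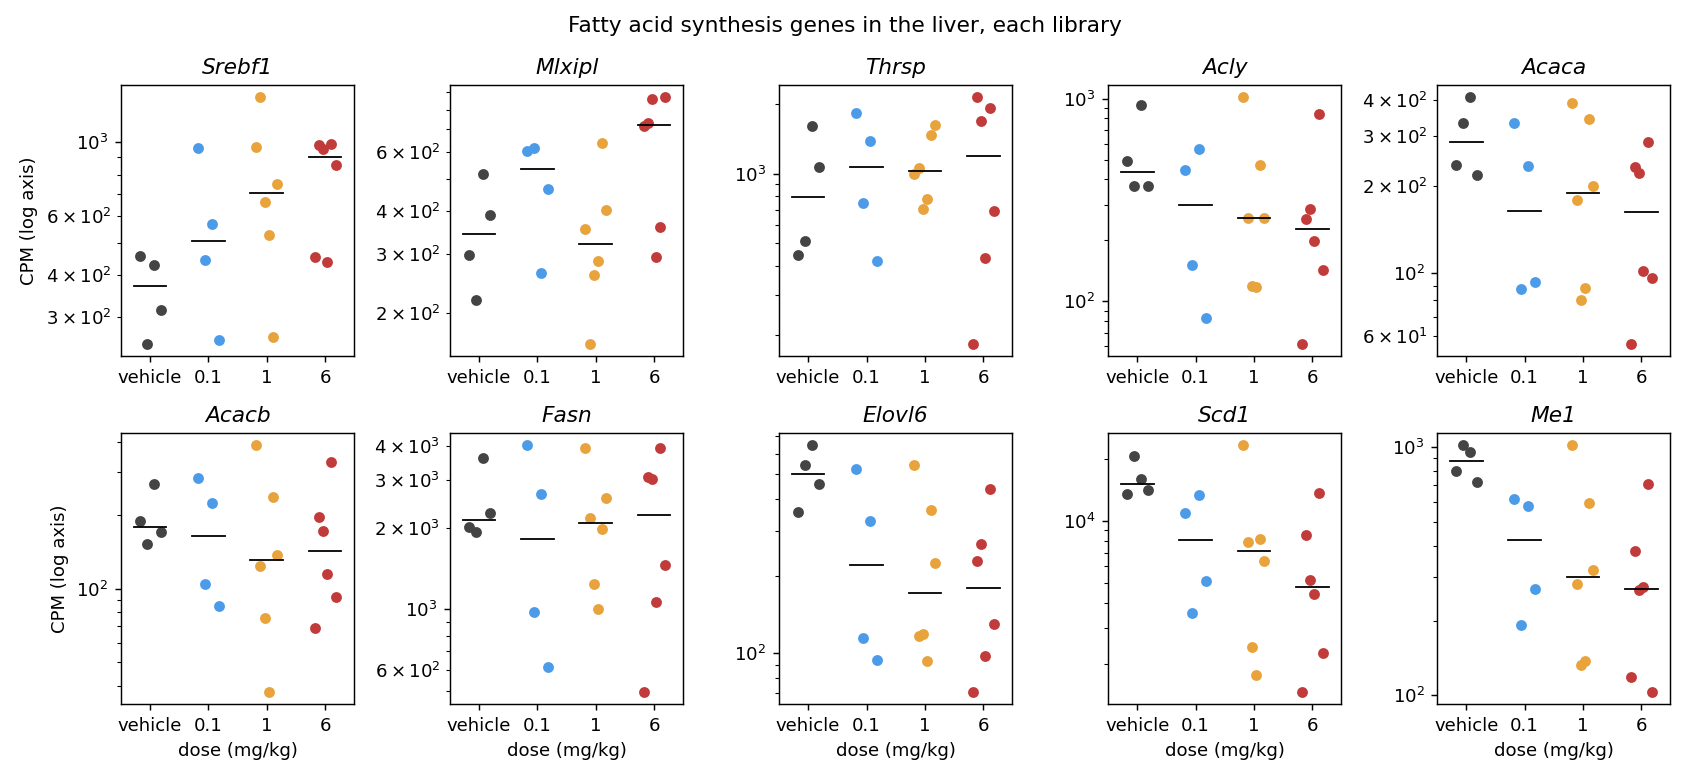
Level of the 10 genes in each liver library in CPM on a log axis, by dose, with the group median as a line. Vehicle livers lie close together for Scd1 and Me1 (highest over lowest 1.53 and 1.40, n = 4). Dosed livers spread more widely (3.76 and 3.22 at 0.1 mg/kg, n = 4, and 9.32 and 6.91 at 6 mg/kg, n = 6).

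The same animals were low or high for most enzymes. Among livers at 6 mg/kg animal 56 had the highest level of all 7 enzymes (Acly, Acaca, Acacb, Fasn, Elovl6, Scd1 and Me1), and animal 52 the lowest of 6 of them. Of the livers at 1 mg/kg animal 41 was highest for all 7 and animal 46 lowest for 5. The ratio of the highest to the lowest liver in a group was 1.40 to 2.51 for the 7 enzymes in vehicle. In the 6 mg/kg group it was 4.75 for Acacb, 5.04 for Acaca, 6.18 for Elovl6, 7.90 for Fasn and 13.6 for Acly. With 4 vehicle livers and 6 at 6 mg/kg, this ratio is not matched for group size. The SD of log2 CPM of the 7 enzymes was 0.224 to 0.623 in vehicle and 0.815 to 1.24 at 6 mg/kg.

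**Figure D3:**
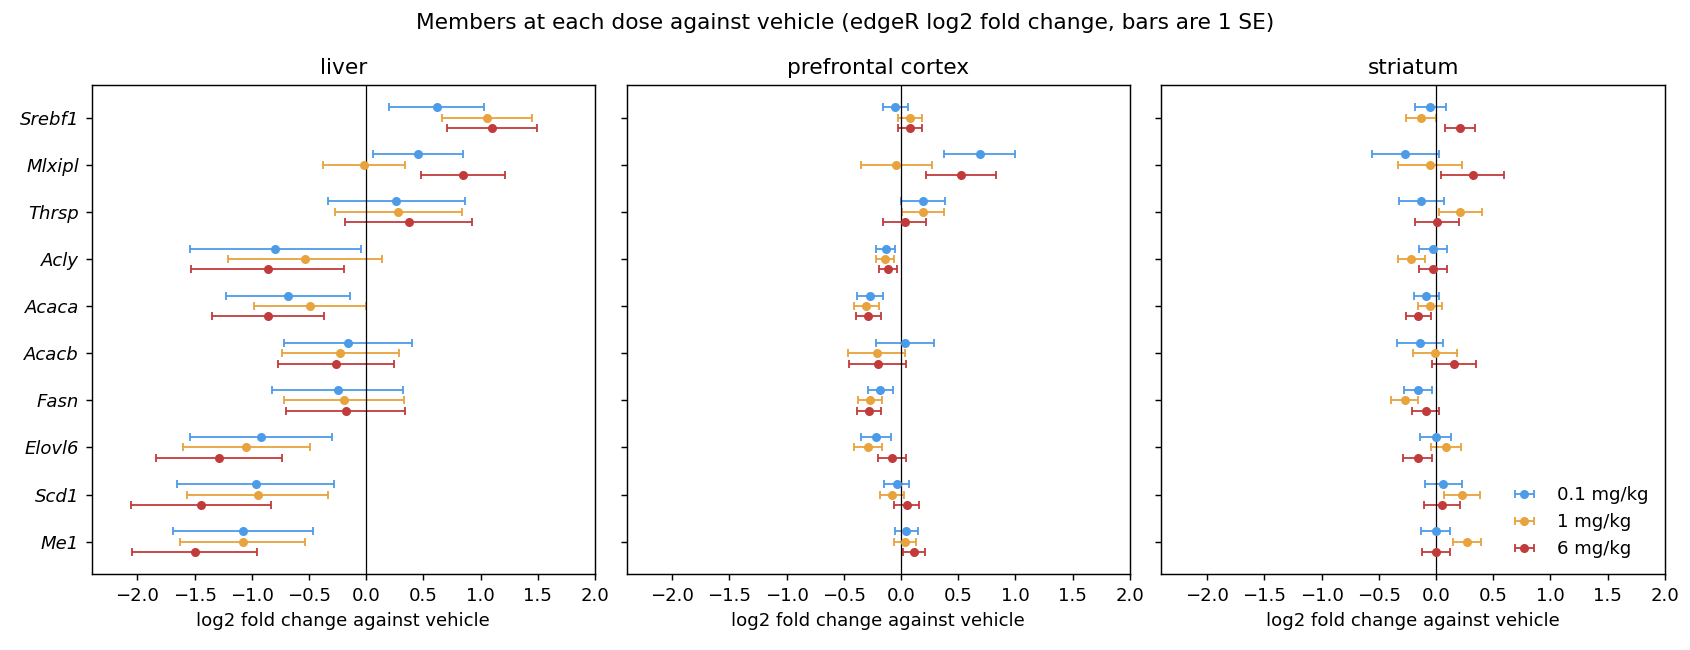
Log2 fold change against vehicle of each gene at 3 doses in 3 tissues, by edgeR, with bars of 1 SE. In the liver the values run from -1.50 (Me1) to 1.10 (Srebf1) at 6 mg/kg, with long bars, and in the brain, Mlxipl aside, they run from -0.30 (Acaca in the prefrontal cortex) to 0.27 (Me1 in the striatum), both at 1 mg/kg.

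Over dose rank, 0 members passed in the liver, against 4.81% of genes, and 4 had an unadjusted p under 0.05, against 25.4%. Srebf1 had a slope of 0.36 log2 units per dose step (SE 0.125, adjusted p 0.0842) and Me1 of -0.45 (SE 0.163, adjusted p 0.0982). DESeq2 gave the Srebf1 slope an adjusted p of 0.0243, the 1 member it called, against 9.86% of genes. Without animal 56 the Me1 slope passed (adjusted p 0.0318), against 10.2% of genes, and without animal 55 the Srebf1 slope did (adjusted p 0.0425), against 9.41%. Each is 1 of 10 members, near these shares. With 0.1 mg/kg in place of vehicle as the reference, 6 mg/kg gave smaller log2 fold changes of 0.48 (SE 0.385) for Srebf1, -0.48 (SE 0.616) for Scd1 and -0.42 (SE 0.549) for Me1, and 0 members passed, against 0.0386% of genes.

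Of 8 genes of the circadian clock, Tef, Dbp and Ciart rose in the liver at 6 mg/kg and Arntl fell, with log2 fold changes of 1.42, 1.68, 2.88 and -1.98, against 2.8% of all genes called. None of the 8 passed at 1 or 0.1 mg/kg, where 0% and 0.0154% of genes did. Without adjustment p was under 0.05 for 4 and 5 of them, against 8.44% and 4.1% of genes. An index of log2 Dbp less log2 Arntl was 2.05 to 5.45 in the 4 vehicle livers and 5.76 to 8.60 in the 16 dosed livers, without overlap, so dosing and the clock index cannot be told apart in these livers. With the index as a covariate the log2 fold change at 6 mg/kg was 1.12 (SE 0.639) for Srebf1, 0.24 (SE 0.594) for Mlxipl, -0.50 (SE 0.878) for Scd1, -0.73 (SE 0.835) for Elovl6 and -0.60 (SE 0.776) for Me1. No member then had an unadjusted p under 0.05, and 0 of all genes passed. Among the 16 dosed livers alone, Pearson's r between the index and log2 CPM was 0.083 for Srebf1, -0.35 for Scd1 and -0.381 for Me1. The summed Kupffer cell markers were 89.3 to 157 CPM in vehicle and 123 to 269 CPM at 6 mg/kg, and the summed blood markers 42.6 to 2577 CPM and 67.1 to 216 CPM. Their part in the results was not tested.

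The regulator Srebf1 was set against Scd1, the enzyme of the pathway with the highest level in the liver. The log2 level of Srebf1 minus that of Scd1, a difference chosen after the values were seen, was -6.37 to -4.88 in vehicle livers, -4.56 to -2.99 at 0.1 mg/kg, -4.97 to -1.75 at 1 mg/kg and -3.79 to -1.42 at 6 mg/kg. Of the 16 dosed livers 15 lay above the vehicle range, and animal 48 at 1 mg/kg lay within it. In the prefrontal cortex the same difference was -1.48 to -0.92 in vehicle and -1.50 to -0.88, -1.315 to -0.71 and -1.49 to -0.87 at 0.1, 1 and 6 mg/kg. In the striatum it was -0.98 to -0.43 in vehicle and -0.96 to -0.55, -1.095 to -0.80 and -0.65 to -0.07 at these doses, so that the mean lay below vehicle at 0.1 and 1 mg/kg and above it at 6 mg/kg. Each dose group of both brain regions overlapped vehicle.

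**Figure D4:**
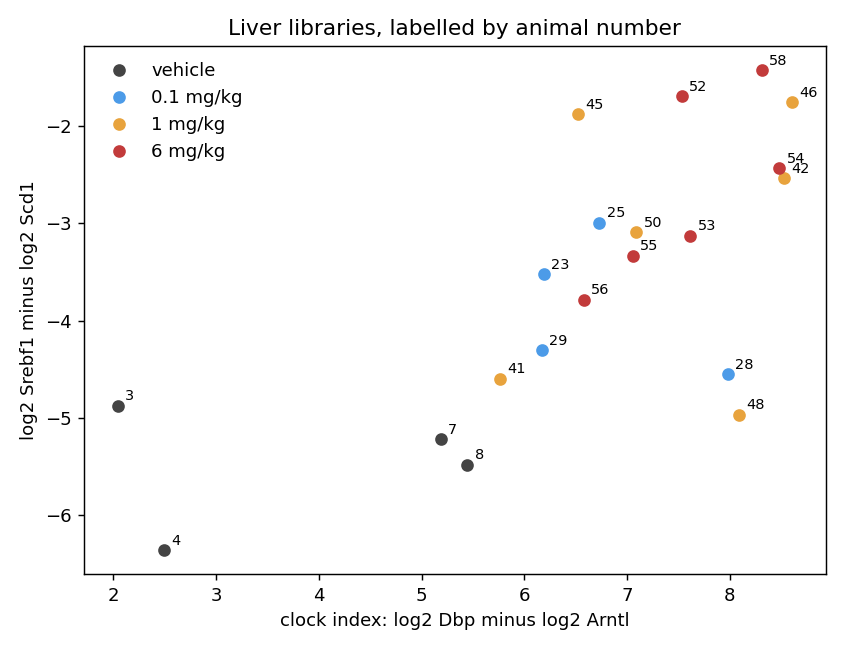
Difference log2 Srebf1 minus log2 Scd1 (vertical axis) against the clock index, log2 of Dbp less log2 of Arntl (horizontal axis), in 20 liver libraries, labelled by animal number and coloured by dose. The 4 vehicle livers lie at the lower left, with an index of at most 5.45 and a difference of at most -4.88.

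Across the 20 livers the 7 enzymes varied as a block. After the mean of each dose group was removed, Pearson's r of log2 CPM for their 21 pairs was 0.768 to 0.961 with a median of 0.908. Scd1 and Me1 formed the closest pair (r = 0.961 within doses, 0.971 over all 20 livers). Thrsp followed the enzymes with r of 0.575 to 0.887, closest to Fasn. Srebf1 correlated with them at 0.251 to 0.688 within doses, but at -0.155 to 0.485 when the doses were pooled. Mlxipl showed r of -0.168 to 0.191 within doses. In the prefrontal cortex the 21 enzyme pairs ranged from -0.415 to 0.799 (median 0.553) and in the striatum from -0.21 to 0.805 (median 0.357). The negative pairs in both regions all included Me1, and the pairs without Me1 were positive. Thrsp with the 7 enzymes ran from -0.687 to 0.312 (median -0.509) in the prefrontal cortex, so it mostly went against them there. In the striatum it ran from -0.522 to 0.553 (median 0.134). All these values of r are descriptions over 20 or 21 libraries that share dose groups and scaling.

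**Figure D5:**
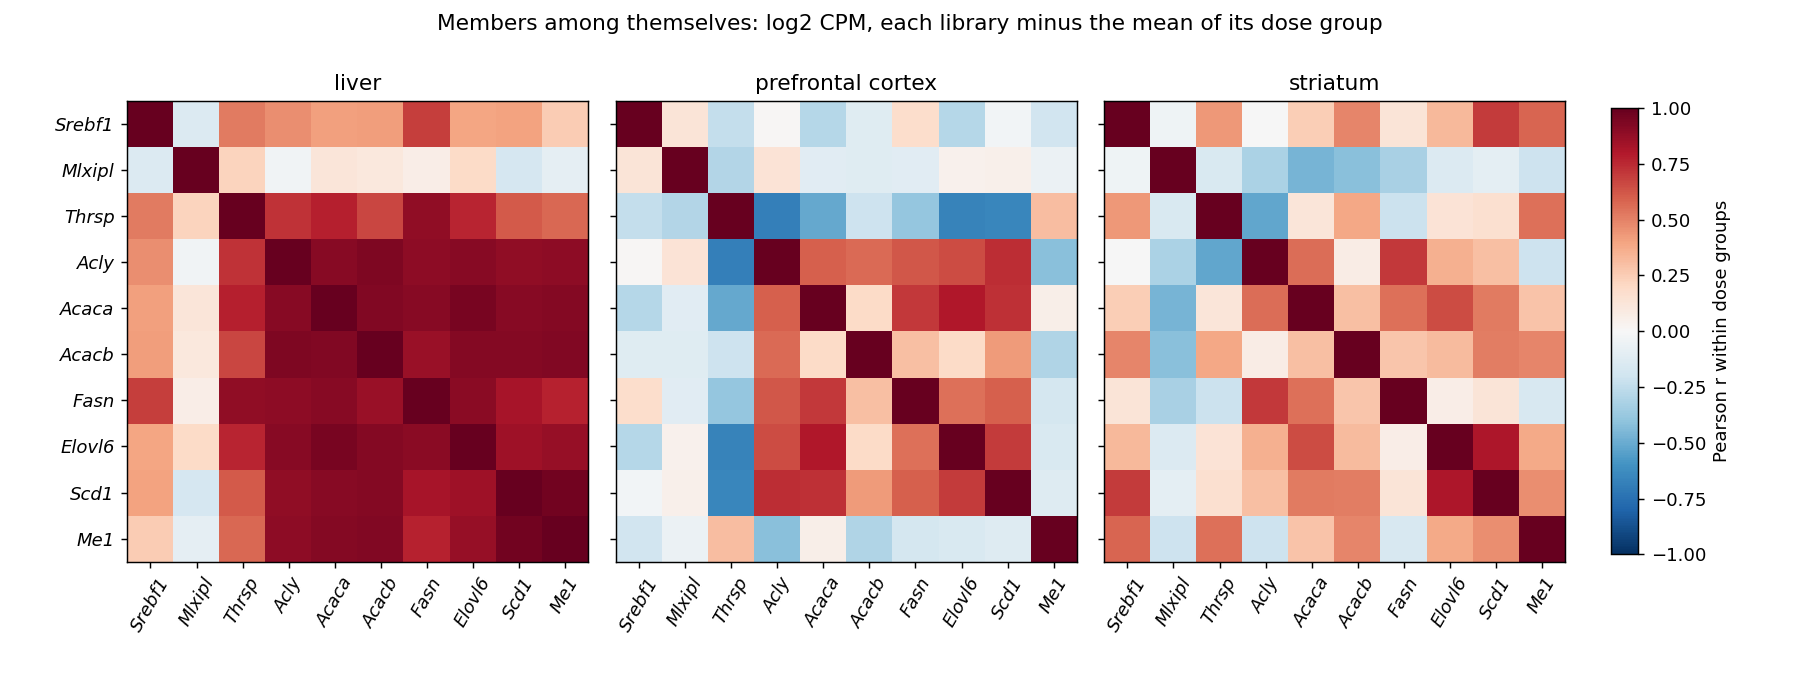
Pearson's r between the 10 genes in each tissue, from log2 CPM of 20 liver, 21 prefrontal cortex and 21 striatum libraries minus the mean of their dose group. The 7 enzymes form a block in the liver with r of at least 0.768. In both brain regions the negative enzyme pairs all include Me1.

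The gene most like each member in the liver was taken as the one with the highest Pearson's r of log2 CPM over the 20 libraries among the 12958 tested genes that are not members. It was Pklr, the liver pyruvate kinase of glycolysis, for Acaca (r = 0.956), Acly (0.939) and Fasn (0.884). It was Acss2, which makes acetyl-CoA from acetate, for Elovl6 (0.956) and Pnpla3, a lipid droplet protein, for Acacb (0.907). Outside the 10 members, Scd1 was closest to Pdk1, a pyruvate dehydrogenase kinase (0.93), and Me1 to Rdh16, a retinol dehydrogenase (0.947), both below the r of 0.971 between Scd1 and Me1 themselves. Mlxipl was closest to Vegfa, an angiogenic growth factor (0.942), Thrsp to Frmd8 (0.843) and Srebf1 to Cd33 (0.78), the lowest of these values. Taking the highest of 12958 values over only 20 libraries, with the doses pooled, favours a high r even for unrelated genes. None of these likenesses was tested.

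Related gene lists were read beside the members in the liver at 6 mg/kg. Of 13 genes that control SREBP-1c and ChREBP, 0 passed; the coactivator Ppargc1b had a log2 fold change of 1.32 (SE 0.494, adjusted p 0.117) and the oxysterol receptor Nr1h2 of 0.41 (SE 0.162). Of 23 tested genes for other steps of fatty acid synthesis, elongation and activation, 0 passed, and 19 had negative values (median -0.31), as did 6241 of the 12968 genes tested. The smallest p there belonged to G6pdx, the NADPH-producing glucose-6-phosphate dehydrogenase (-1.98, SE 0.566, adjusted p 0.0605), the elongase Elovl5 (-0.52, SE 0.164) and the elongase Elovl3 (1.48, SE 0.483). Elovl3 rose over dose rank (slope 0.53, adjusted p 0.0382).

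Of 17 tested genes of triglyceride synthesis and lipid droplets 0 passed at 6 mg/kg, and Mogat1, a monoacylglycerol acyltransferase, had a log2 fold change of 2.35 (SE 0.739, adjusted p 0.0777) and passed over dose rank (slope 0.79, adjusted p 0.0365). Of 10 further targets of LXR and ChREBP, Abcg5, a sterol exporter, rose (1.06, SE 0.273, adjusted p 0.0413). Over dose rank Abcg5 and Lpcat3, a phospholipid acyltransferase, passed (slopes 0.34 and 0.16, adjusted p 0.0251 and 0.0455). Of 12 cholesterol synthesis genes, which SREBP-2 controls, 0 passed, with Idi1 at -0.98 (SE 0.384) and Cyp51 at -0.89 (SE 0.357). Of 15 fatty acid oxidation genes, Pdk4, a fasting-induced kinase that spares glucose, fell (-1.41, SE 0.337, adjusted p 0.0319), also over dose rank, and 12 had positive values (median 0.33), as did 6727 of the 12968 genes. The counts that passed stand beside 2.8% of all genes at 6 mg/kg and 4.81% over dose rank.

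In the prefrontal cortex 0 members passed at any dose or over dose rank. The shares of all 14838 genes that passed were 0% at each dose and 0.0202% for the slope, where 2 members had an unadjusted p under 0.05 (9.79% of genes). At 6 mg/kg 2 of 10 members had an unadjusted p under 0.05, Acaca and Fasn, against 9.27% of genes, and at 1 mg/kg 3 of 10, these and Elovl6, against 8.29%. At 0.1 mg/kg Acaca and Mlxipl did, against 6.43%. By DESeq2 0 members passed in either brain region at any dose, against 0.435%, 0% and 0.00674% of genes at 6, 1 and 0.1 mg/kg in the prefrontal cortex and 0.249%, 0.047% and 0.00661% in the striatum.

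Acaca measured 95.3, 99.5, 88.8 and 90.7 CPM in vehicle prefrontal cortex and 63.5 to 87.1 CPM at 6 mg/kg. The groups did not overlap at 6 mg/kg or at 0.1 mg/kg, where it ran from 71.1 to 87.6 CPM, and this held for 1 of 10 members each time and for 3.11% and 2.06% of all genes. At 1 mg/kg it held for 0 of 10 members and 2.33% of genes. The log2 fold change at 6 mg/kg was -0.29 (SE 0.1099, adjusted p 0.429). Fasn measured 391, 413, 458 and 439 CPM in vehicle and 305 to 411 CPM at 6 mg/kg, a log2 fold change of -0.28 (SE 0.106, adjusted p 0.423). Corrected for the GC content and length of transcripts, these values became -0.12 (SE 0.0759) for Acaca and -0.05 (SE 0.0792) for Fasn. Their longest transcripts, of 9513 and 10050 bases, are the longest of the 10 members. The summed oligodendrocyte markers were 2052 to 3096 CPM in vehicle and 2789 to 3297 CPM at 6 mg/kg, and the neuron markers 4258 to 5251 and 4469 to 5215 CPM. The cortical projection neuron markers were 1703 to 2118 CPM in vehicle and 1254 to 1837 CPM at 6 mg/kg, and the blood markers 31.0 to 474 and 7.94 to 63.8 CPM. The part of all these markers was not tested.

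Mlxipl, at 1.30 to 2.28 CPM in vehicle prefrontal cortex, measured 2.09 to 4.42 CPM at 0.1 mg/kg (log2 fold change 0.69, SE 0.31, adjusted p 0.742), 1.11 to 2.72 CPM at 1 mg/kg and 1.50 to 3.59 CPM at 6 mg/kg. The groups overlapped at each dose. Srebf1 stayed between 50.8 and 75.5 CPM in all 21 libraries, Scd1 between 115 and 184 CPM and Me1 between 51.6 and 71.5 CPM.

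In the striatum 0 members passed at any dose or over dose rank, against 0% of the 15118 genes in each of these comparisons. At 6 mg/kg 0 had an unadjusted p under 0.05, against 15.7% of genes, and at 0.1 mg/kg 0, against 2.53%; for the slope it was 0, against 13.1%. At 1 mg/kg Fasn (log2 fold change -0.27, SE 0.118, adjusted p 0.676) and Me1 (0.27, SE 0.123, adjusted p 0.676) did, against 7.36%. Fasn measured 446, 468, 566 and 557 CPM in vehicle and 365 to 541 CPM at 1 mg/kg, and the groups overlapped. After the same correction its value was -0.10 (SE 0.06303). Acly was the single member without overlap at 1 mg/kg, at 269 to 331 CPM against 345 to 360.5 CPM in vehicle, where 0.88% of genes had none. At 6 mg/kg 0 of 10 members were free of overlap (3.58% of genes) and at 0.1 mg/kg 0 of 10 (1.31% of genes). Srebf1 measured 116 to 129.9 CPM in vehicle striatum and 118 to 159 CPM at 6 mg/kg. The summed neuron markers were 2505 to 3121 CPM in vehicle striatum and 2707 to 3776 CPM at 1 mg/kg, and the oligodendrocyte markers 3998 to 6092 and 4216 to 10304 CPM. The part of these markers was not tested.

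The difference between tissues in the effect of 6 mg/kg was tested as an interaction. No member passed for any pair of tissues, against 0.899% of genes for liver and prefrontal cortex, 0.0277% for liver and striatum and 0% for the brain regions. For liver minus prefrontal cortex 4 of 10 members had an unadjusted p under 0.05, against 20% of genes: Srebf1 (1.00, SE 0.321, adjusted p 0.105), Elovl6 (-1.22, SE 0.478), Scd1 (-1.50, SE 0.552) and Me1 (-1.62, SE 0.498, adjusted p 0.0952). For liver minus striatum the same 4 did, against 14.3%, and for the brain regions 0, against 6.43%. With DESeq2 Srebf1 (adjusted p 0.032) and Me1 (adjusted p 0.0339) passed for liver and prefrontal cortex, against 6.48% of genes. Without animal 56 Elovl6, Scd1 and Me1 passed there (adjusted p 0.0421, 0.0362 and 0.0186), against 2.74% of genes, and without animal 55 Srebf1 did (adjusted p 0.0374), against 5.33%.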

How the data were processed

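The authors deposited whole-number read counts per gene in 1 table per tissue. Reads were processed with FastQC and HISAT2 on mm10, per the submitters' processing notes. The counting tool, the annotation, the use of strand and the choice between poly(A) capture and ribosomal RNA removal are not given in the sources used here. The smallest total of a listed gene was 10 counts. Groups came from the treatment and tissue labels. The members and gene lists were chosen with earlier results of these data known. All 10 members are named, and from each list at most 3 genes with the smallest p in the liver at 6 mg/kg and any that pass.

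The model was edgeR 4.0.16 under R 4.3.3, with filterByExpr, TMM scaling, 1 quasi-likelihood fit per tissue over all doses, and Benjamini-Hochberg adjustment over all genes, with 0.05 as the threshold. Interactions and vehicle differences used fits of a pair of tissues. SE is the log2 fold change over the square root of F. The code was tested on simulated counts. Between libraries of a group, chi-square over its degrees of freedom was at least 2.94, so each counted as 1 replicate. Transcript lengths came from GENCODE vM21. Alternatives included DESeq2 1.42.0, other filters and scaling, an offset for GC content and length, a clock covariate and the removal of each library.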

Additional observations from a re-analysis of the deposited data

Results flagged for a closer look

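A library far from the others of its group was looked for in 132 groups of 4 to 6 libraries (the 10 members and the clock index in each tissue and dose). It was found in 7, and about 6.6 are reached by chance. In the liver these were animal 56 for Acly at 6 mg/kg (839 CPM, above the others) and animal 41 for Scd1 at 1 mg/kg (23379 CPM, above the others). In the prefrontal cortex they were Thrsp in vehicle animal 8 (9.70 CPM, low) and in animal 45 at 1 mg/kg (23.7 CPM, high), Acly in vehicle animal 3 (222 CPM, low) and Acacb in animal 53 at 6 mg/kg (8.06 CPM, high). In the striatum it was Fasn in animal 50 at 1 mg/kg (541 CPM, high).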

How the results depend on the processing

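The count of members that passed changed in liver comparisons with DESeq2, which gave 1 at 6 mg/kg, 1 over dose rank and 2 for the interaction with prefrontal cortex in place of 0. Without each replicate in turn these counts ran from 0 to 1, 0 to 1 and 0 to 3, and the 4 members that differed between the brain regions in vehicle became 3 to 6. Of 494 values of single members under other settings, 478 kept their direction and side of the threshold and 10 changed sign, none of them past the threshold. With the clock covariate these were Thrsp at -0.37, -0.43 and -0.31 (6, 1 and 0.1 mg/kg) and -0.078 (slope), Acacb at 0.32, 0.29, 0.33 and 0.053, and the Fasn slope at 0.022; Fasn was 0.071 at 6 mg/kg against 0.1 mg/kg. Leaving out each replicate, values that crossed 0 ran from -0.43 to 0.071 for Fasn at 6 mg/kg, -0.28 to 0.21 for Mlxipl and -0.45 to 0.051 for Fasn at 1 mg/kg, -0.49 to 0.069 for Acacb, -0.79 to 0.056 for Fasn and -0.094 to 0.696 for Thrsp at 0.1 mg/kg, and -0.12 to 0.027 for the Fasn slope.

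The number of liver genes that passed at 6 mg/kg was 363, and it was 1138 with DESeq2, 241 without a filter, 124 after the GC correction, 13 with the dose group and vehicle alone, 5 against 0.1 mg/kg and 0 with the clock covariate.

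The animal number is shared between tissues. Same-animal libraries deviated together with a mean r of 0.0063 for liver and prefrontal cortex, 0.0052 for liver and striatum and 0.113 for the brain regions (lowest -0.09). Between other animals of the same dose the mean r was -0.0016, -0.002 and -0.0233. The numbers are thus not shown to pair the liver with the brain. For the brain regions the same-animal mean was the higher one, but single pairs fell below 0, so pairing there is not settled. With the replicate block 0 members passed in each interaction and 10, 10 and 5 members in the vehicle comparisons of liver with prefrontal cortex, liver with striatum and striatum with prefrontal cortex, the added member being Scd1 (0.32, adjusted p 0.0436).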
